A study of Arabidopsis thaliana with 12 samples.

Results

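The cytosolic ribosomal protein genes of Arabidopsis thaliana were followed across wild-type seedlings and 3 mutants. The group was a list of 50 nuclear loci, 30 for proteins of the large (60S) ribosomal subunit and 20 for proteins of the small (40S) subunit. A locus counted as measured where the array had a probe set, a set of short probes read as 1 value, that was assigned to that gene alone. By this rule 23 of the 50 loci were measured, 15 of the large and 8 of the small subunit, each by 1 probe set among the 22746 tested. Another 3 loci lay only on a probe set shared by several genes and 24 had no named probe set, and these 27 were not analysed here. The list was defined by the encoded proteins. The array annotation and the RefSeq gene table list all but 1 of the 23 measured loci by locus identifier alone. The protein names and the division into subunits used below are therefore those of the standard Arabidopsis ribosomal protein nomenclature, given as background, and PGY1 (AT2G27530) is the 1 locus with a symbol.

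Whole Col-0 seedlings, grown for 10 days on MS medium, gave total RNA for 12 Affymetrix arrays read by labelling from the 3' end. The 4 groups of 3 arrays were wild type and mutants labelled mbd4, mbd6 and mbd11, which carry a T-DNA insertion, each in a gene for a protein with a methyl-CpG-binding domain, a fold known for binding methylated DNA. The labels call the arrays of a group biological replicates, and p-values measure the spread between these samples. Each mutant was represented by 1 labelled line, and no source used here gives the insertion sites or allele names. None of the 3 targeted genes had a named probe set (0 of 3), so the labels could not be checked against the transcripts of the mutated genes. Values are log2 intensities, on which a difference of 1 is a 2-fold change. They are read from different probes, so the order of levels between genes is a description of the arrays and not of molecule numbers.

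A cytosolic ribosome is built of a large and a small subunit, each of ribosomal RNA and many proteins. The small subunit reads the messenger RNA, and the large subunit joins amino acids and holds the tunnel through which the new protein leaves. In plants each ribosomal protein is encoded by a small family of near-copies. These genes are known to be highly expressed in growing tissue, and mutants in several of them are known for pointed leaves, altered leaf polarity or arrested embryos.

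The mbd11 arrays stood apart from the others over the whole array. Correlations between arrays over all probe sets were at least 0.979 among the 9 wild-type, mbd4 and mbd6 arrays, and fell to 0.900 where an mbd11 array entered. The SD within a genotype had a median of 0.353 in mbd11, where those of wild type, mbd4 and mbd6 were 0.112, 0.134 and 0.118. Plant control probe sets, which read the 3' and 5' ends of actin, GAPDH and ubiquitin transcripts, differed by 1.98, 1.99 and 2.58 on the mbd11 arrays. They differed by 1.17 to 1.50 in wild type, by at most 1.30 in mbd6, and by 1.08, 1.15 and 2.08 in mbd4. Of the leaf markers, 3 of 6 were measured and stood at 12.40 to 13.74 in wild type, and of the root markers 2 of 10 were measured, PYK10 at 12.47 and EXPA7 at 5.76. None of 11 dividing-cell markers and none of 6 seed and flower markers were measured (0 of each).

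In wild type the ribosomal protein transcripts were among the brightest on the array. Counts and medians over the group cover all 23 members, and single values are given for 21 of them, 14 of the large and 7 of the small subunit. Wild-type means of these 21 ran from 10.09 to 12.81, between the 95.4th and 99.8th percentile of all probe sets. The 14 large subunit transcripts lay between 10.83 and 12.51, inside the wider range of the 7 of the small subunit, 10.09 to 12.81. RPS9 (AT5G15200), a protein near the entry of the messenger RNA channel in yeast, read 12.83, 12.76 and 12.82. RPL7a (AT3G62870) read 12.53, 12.47 and 12.54. These 2 did not overlap with each other in wild type. At the lower end, RPS10 (AT4G25740) read 10.11, 10.18 and 9.98, RPS4 (AT5G07090) read 9.99, 10.26 and 10.10, and RPS24 (AT3G04920) read 10.00, 10.37 and 10.14. The values of these 3 interleaved, so their order is within the spread between replicates.

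The spread of a ribosomal protein transcript between arrays of a genotype was small outside mbd11. Over the 23 genes its SD had a median of 0.061 (wild type), 0.079 (mbd4), 0.092 (mbd6) and 0.212 (mbd11). For probe sets of similar level, the 200 non-member probe sets nearest in mean over all 12 arrays, the corresponding medians were 0.083, 0.115, 0.099 and 0.193. The members' values thus varied less than those neighbours' in 13, 17 and 12 of 23 cases in wild type, mbd4 and mbd6, and in 10 of 23 in mbd11. The order of the genes by level was nearly that of wild type in mbd4 and mbd6 (Spearman 0.98 and 0.99 over the 23 group means) and less so in mbd11 (0.66). These correlations share the wild-type arrays and are given as a description.

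**Figure D1:**
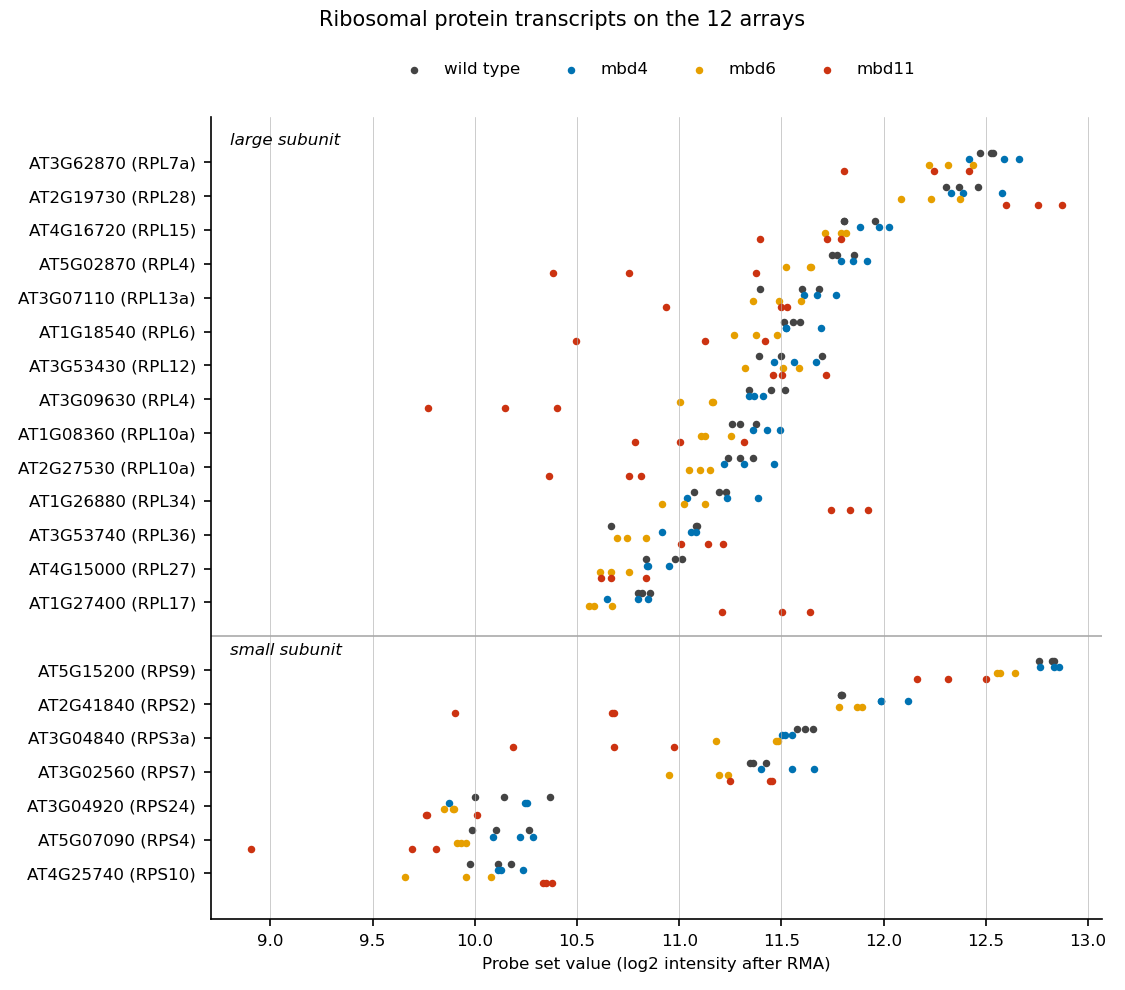
Log2 intensity (x axis) of 21 of the measured ribosomal protein genes on all 12 arrays, 1 point per array, coloured by genotype, with 14 large subunit genes above the line and 7 small subunit genes below it. Wild-type, mbd4 and mbd6 points lie close together for most genes, while mbd11 points spread widely, from 2.22 below the highest array for RPS2 to values above all other arrays for RPL34 and RPL17.

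The first comparison asked how the mbd4 mutant differed from wild type. No ribosomal protein transcript passed the test in mbd4 (0 of 23 with limma at an adjusted p under 0.05), where 8.81% of all probe sets passed. At an unadjusted p under 0.05 there was 1 of 23, RPS2, where 22.9% of all probe sets were under it. The median change was 0.05, with 0.05 for the large and 0.06 for the small subunit, beside -0.03 over all probe sets. It was 0.0068 without mbd4 replicate 3, 0.017 without wild-type replicate 1 and 0.086 without mbd4 replicate 2. The third mbd4 array, whose 3' to 5' difference was 2.08, was the highest of the 3 for 16 of 23 members. Changes ran from -0.09 to 0.24 with standard errors of 0.09 to 0.14, and 17 of the 23 were positive. Against probe sets of similar level the median difference was 0.07, and 18 of 23 members lay above the median of their neighbours. In bulk RNA, here and below, fewer cells of a type and less RNA per cell cannot be told apart.

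RPS2 (AT2G41840), a small subunit protein known in yeast for its part in accurate decoding, was the member farthest from wild type in mbd4. It read 11.79, 11.79 and 11.80 in wild type and 11.99, 12.12 and 11.99 in mbd4. The groups did not overlap, but the difference of 0.24 (SE 0.09) missed the threshold in limma (adjusted p = 0.150, and 0.079 to 0.86 over all alternatives). RPS7 (AT3G02560) read 11.36, 11.42 and 11.34 against 11.40, 11.55 and 11.66, which overlap, a difference of 0.16 and of 0.17 from its neighbours. RPS3a (AT3G04840) was the other member without overlap, with 11.66, 11.58 and 11.61 in wild type and 11.55, 11.52 and 11.50 in mbd4, a difference of -0.09. RPL27 (AT4G15000) read 10.84, 11.02 and 10.98 in wild type and 10.84, 10.85 and 10.95 in mbd4, which overlap. It lay 0.08 below its neighbours' median, with a difference of -0.06 from wild type. Groups of 3 without overlap numbered 2 of 23 among the members, where they made up 28.5% of all probe sets.

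The mbd6 mutant was compared with wild type in the same way. In mbd6 the ribosomal protein transcripts lay slightly below wild type as a group, and RPL4 (AT3G09630) fell. The median difference was -0.18, with -0.18 for the large and -0.20 for the small subunit, beside -0.03 over all probe sets. The difference was negative for 22 of 23 members, RPS2 at 0.06 being the exception. All 3 mbd6 values lay below all 3 wild-type values for 14 of 23 members (60.9%), where 36.1% of all probe sets had no overlap in either direction and 19.6% lay wholly below. By limma, 1 of 23 was called, lower, where 19.9% of all probe sets were called and 10.0% were called lower. Most differences missed the threshold with standard errors of 0.09 to 0.12, and 7 of 23 had an unadjusted p under 0.05, where 31.8% of all probe sets did. Of the 3 measured leaf markers, RCA (-0.32, adjusted p = 0.0297) and PRK (-0.42, adjusted p = 0.00748) fell in mbd6 and LHCB4.1 differed by 0.12 (adjusted p = 0.404), while neither root marker was called (PYK10 at -0.04 and EXPA7 at 0.19). Their part in the values of mbd6 was not tested.

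RPL4 (AT3G09630) belongs to the large subunit, where in yeast and bacteria its extension lines the exit tunnel. It read 11.45, 11.34 and 11.52 in wild type and 11.00, 11.16 and 11.17 in mbd6, without overlap. It fell by 0.33 (SE 0.10, 1.25-fold, limma adjusted p = 0.038). The call was made in 8 of 17 settings. It did not hold when wild-type array 1 or 3 was left out (adjusted p = 0.100 and 0.138), without mbd6 replicate 1, 2 or 3 (0.106, 0.063 and 0.068), in the fit over all 12 arrays (0.324), and after cyclic loess scaling (0.077), with a range of 0.014 to 0.32 over all settings. The other measured RPL4 gene, AT5G02870, read 11.75, 11.86 and 11.77 in wild type and 11.52, 11.64 and 11.64 in mbd6. Its difference was -0.19 (adjusted p = 0.189).

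Part of the lower position in mbd6 was shared by other bright probe sets. The neighbours of similar level had a median change of -0.10, and the members lay a median of 0.08 below them, with 5 of 23 above. The members farthest below their neighbours were RPS24 (AT3G04920), by 0.26, and RPL4 (AT3G09630), by 0.24. RPS24 read 9.89, 9.85 and 9.90 in mbd6, below its wild-type values given above, a difference of -0.29 (adjusted p = 0.0872). Farthest above were RPS2 (AT2G41840), by 0.20, with 11.78, 11.89 and 11.87 in mbd6, and RPL12 (AT3G53430), a protein at the base of the factor-binding stalk, by 0.08. RPL12 read 11.39, 11.70 and 11.50 in wild type and 11.32, 11.51 and 11.59 in mbd6. The first mbd6 array was the lowest of the 3 for 17 of 23 members, and without it the median difference was -0.13. Median centring gave -0.21 and cyclic loess -0.12.

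**Figure D2:**
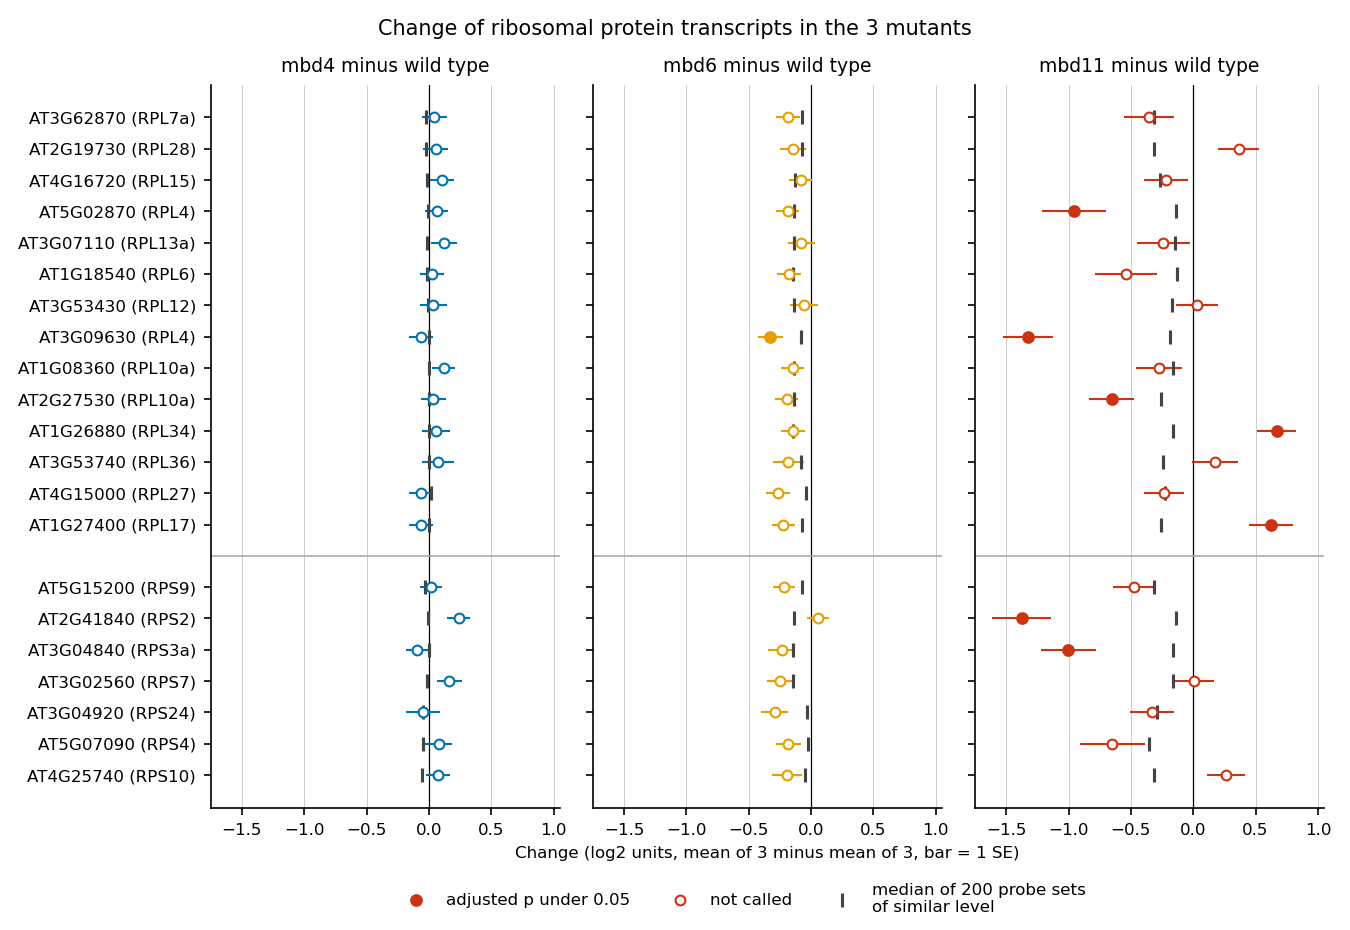
Change of 21 ribosomal protein genes (x axis, log2 units, mean of 3 mutant minus mean of 3 wild-type arrays, bars 1 SE) in mbd4, mbd6 and mbd11, with filled points for genes past an adjusted p of 0.05 and dark ticks for the median change of the 200 probe sets of similar level. No point is filled in mbd4, 1 is in mbd6 and 7 are in mbd11, where 5 lie to the left of 0 and 2 to the right.

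The third comparison set mbd11 against wild type. In mbd11 the ribosomal protein transcripts moved in both directions, and single genes moved farther than in the other mutants. RPS2, both measured RPL4 genes, RPS3a and PGY1 fell, with changes of -1.38 to -0.66, and RPL34 and RPL17 rose by 0.67 and 0.62. By limma, 7 of 23 were called, 5 lower and 2 higher, where 22.4% of all probe sets were called, 12.6% lower and 9.78% higher. Without overlap with wild type were 14 of 23 (60.9%), against 47.7% of all probe sets.

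RPS2 (AT2G41840) changed most. Its mbd11 values were 10.67, 9.90 and 10.68, all below the lowest of the 9 other arrays, 11.78. It fell by 1.38 (SE 0.24, 2.59-fold, limma adjusted p = 0.00728) and was called in 17 of 17 settings. RPL4 (AT3G09630) read 10.15, 9.77 and 10.40, also below every other array. It fell by 1.33 (SE 0.20, 2.51-fold, limma adjusted p = 0.00477) and was called in 17 of 17 settings.

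A further 3 transcripts fell, with less stable calls. RPS3a (AT3G04840), a small subunit protein near the exit of the messenger RNA channel in yeast, read 10.97, 10.19 and 10.68 in mbd11 against its wild-type values of 11.58 to 11.66. It fell by 1.00 (SE 0.22, limma adjusted p = 0.0176). The other RPL4 gene, AT5G02870, read 10.75, 10.38 and 11.38 and fell by 0.95 (SE 0.26, adjusted p = 0.0346). PGY1 (AT2G27530), which encodes RPL10a, a protein of the flexible stalk beside the site where spent transfer RNA leaves, is known for its effect on leaf polarity. It read 11.36, 11.24 and 11.30 in wild type and 10.81, 10.36 and 10.75 in mbd11. It fell by 0.66 (SE 0.18, adjusted p = 0.0373). For all 3 the mbd11 and wild-type values did not overlap.

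The 2 transcripts that rose belong to the large subunit. RPL34 (AT1G26880) read 11.07, 11.23 and 11.20 in wild type and 11.74, 11.92 and 11.84 in mbd11. It rose by 0.67 (SE 0.16, 1.59-fold, limma adjusted p = 0.0210). RPL17 (AT1G27400), which lines the exit tunnel beside RPL4 in yeast, read 10.80, 10.86 and 10.82 in wild type and 11.50, 11.64 and 11.21 in mbd11. It rose by 0.62 (SE 0.17, 1.54-fold, adjusted p = 0.0384). Both lay above all 9 other arrays.

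**Figure D3:**
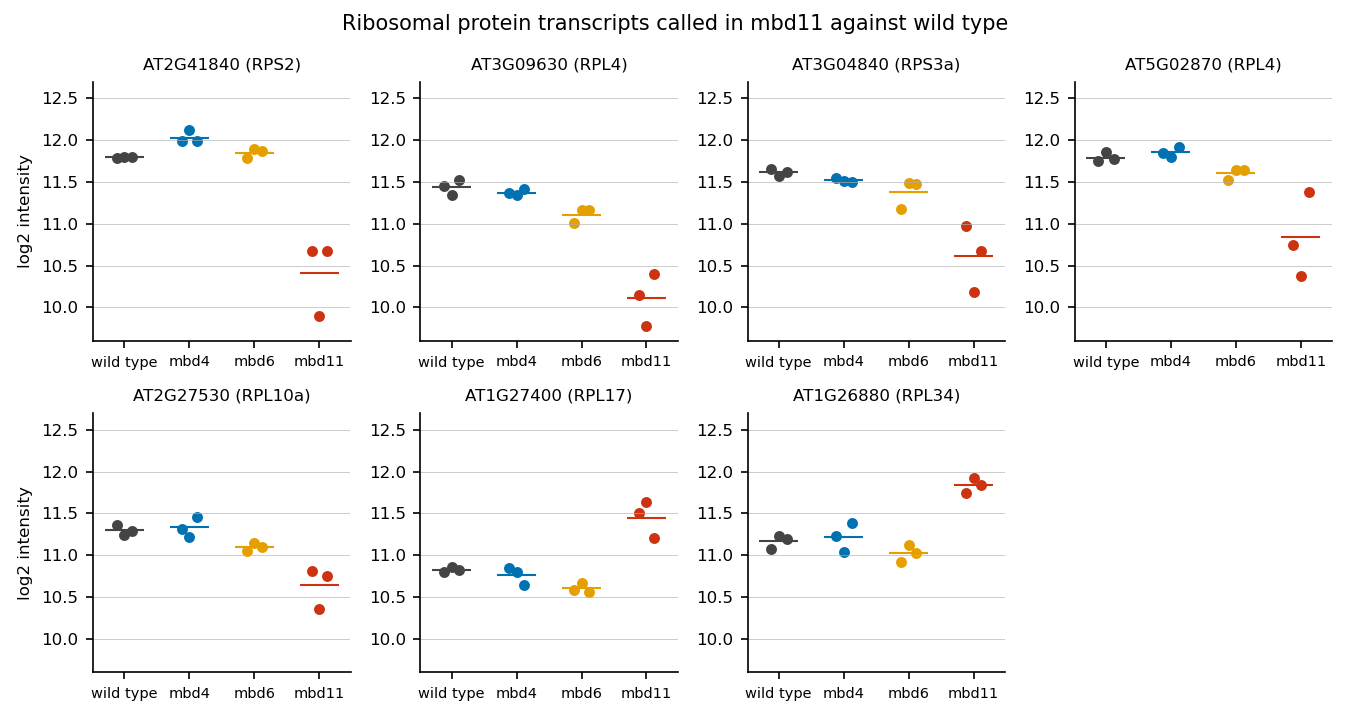
Log2 intensity (y axis) on each array of the 7 ribosomal protein genes called in mbd11 against wild type, by genotype, with a line at each group mean. In every panel the mbd11 points are separate from the wild-type points, below them for RPS2, both RPL4 genes, RPS3a and RPL10a and above them for RPL34 and RPL17, and the second mbd11 array is the lowest point in the 5 panels of genes that fell.

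Leaving out any 1 of the 3 wild-type arrays left 2 of the 7 calls, RPS2 and RPL4 (AT3G09630), and the share of all probe sets called dropped as well, to between 7.19% and 8.91%. Without them in turn, RPS3a had adjusted p = 0.083, 0.072 and 0.082 (0.00088 to 0.083 over all settings), AT5G02870 had 0.114, 0.126 and 0.119 (0.0025 to 0.13), and PGY1 had 0.155, 0.122 and 0.144 (0.0031 to 0.16). RPL34 had 0.119, 0.0865 and 0.102 (0.0017 to 0.12) and RPL17 had 0.154, 0.134 and 0.150 (0.003 to 0.15). None of the 7 changed sign in any of the 17 settings (0 of 7). Without mbd11 replicate 1 the calls of AT5G02870 and RPL17 were lost (0.078 and 0.067). Cyclic loess gave PGY1 a change of -0.36 and AT5G02870 one of -0.66, and neither was called (0.131 and 0.077). Without mbd11 replicate 2, the lowest of the 3 for 14 of 23 members, 8 members were called, 6 lower and 2 higher, where 36.4% of all probe sets were called, and RPS2 and RPL4 (AT3G09630) differed by -1.12 and -1.16.

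The remaining 16 members were not called in mbd11. Among them were RPS4 (AT5G07090), with 9.81, 8.91 and 9.69 and a difference of -0.65 (SE 0.26, adjusted p = 0.109), and RPL6 (AT1G18540), with 11.13, 10.49 and 11.42 and a difference of -0.54 (adjusted p = 0.152). RPS9 (AT5G15200) read 12.50, 12.16 and 12.32, all below wild type, a difference of -0.48 (adjusted p = 0.0719). RPL7a (AT3G62870) read 12.42, 11.81 and 12.25, a difference of -0.35. The mbd11 values of these 4 genes, and of RPL15 (AT4G16720) with a difference of -0.22, did not overlap with wild type, with SDs in mbd11 of 0.17 to 0.49. On the upper side, RPL28 (AT2G19730) read 12.31, 12.46 and 12.37 in wild type and 12.75, 12.87 and 12.60 in mbd11, a difference of 0.36 (adjusted p = 0.142). RPS10 (AT4G25740) read 10.38, 10.34 and 10.35, a difference of 0.26 with an SD in mbd11 of 0.021, the smallest among the 23 members. RPL12, RPL13a (AT3G07110), RPL27, RPL36 (AT3G53740), RPS7, RPS24 and AT1G08360 overlapped with wild type and lay between -0.33 and 0.18.

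The group as a whole followed other bright probe sets in mbd11. Over all probe sets the median change was 0.12, and it fell with level to below 0 among bright ones, as the plot of change against level shows. The members' median change was -0.24, with -0.24 for the large and -0.40 for the small subunit, and that of their neighbours of similar level was also -0.24. Relative to those neighbours the members' median was -0.04, with 10 of 23 above. With neighbours chosen by wild-type level alone it was 0.14. Median centring raised the median over all probe sets by 0.10 and gave the members -0.14. Cyclic loess, which removes a trend with level, lowered it by 0.11 and gave the members 0.06, a change of direction, with 4 called higher and 3 lower, where 11.8% of all probe sets were called higher and 10.8% lower.

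Single genes lay toward both ends of the range of their neighbours, though not beyond it. RPS2 lay 1.24 and RPL4 (AT3G09630) 1.14 below the median of their neighbours, each at the 8.0th percentile among them. RPL17 lay 0.89 and RPL34 0.83 above, each at the 90.5th percentile, and RPL28 lay 0.68 above, at the 91.0th. At the lower end, then, 8.0% of those neighbours had a still lower change. Distances of this size were thus not particular to the members.

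**Figure D4:**
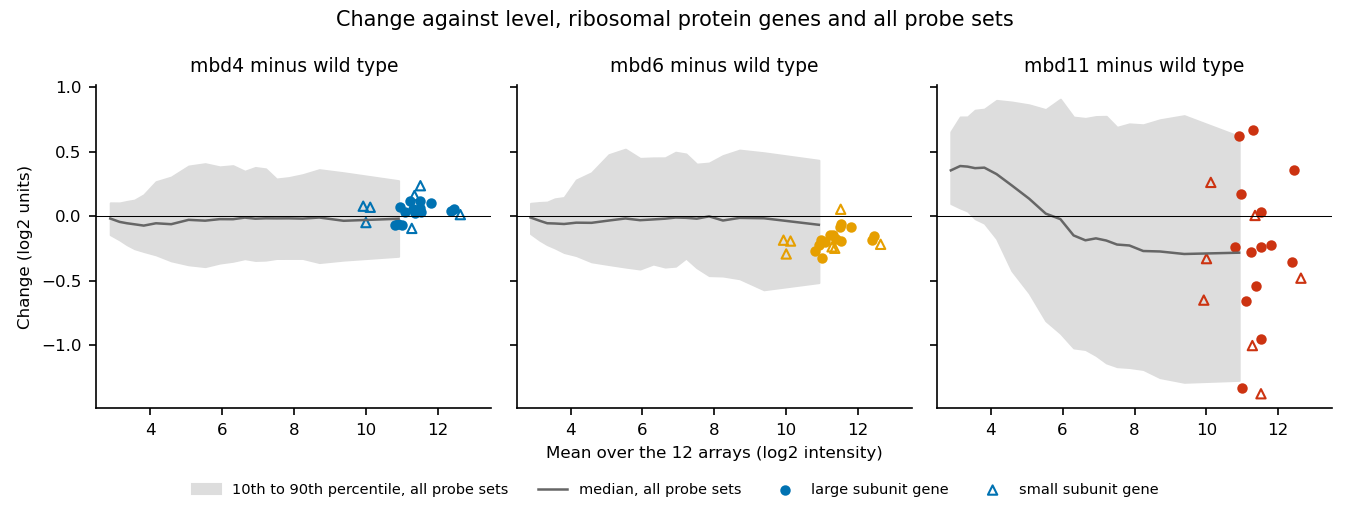
Change against wild type (y axis, log2 units) by mean level over all 12 arrays (x axis, log2 intensity) in the 3 mutants, with 21 ribosomal protein genes as points (circles for the large, triangles for the small subunit) over the 10th to 90th percentile band and the median of all probe sets in 20 classes of equal size, each drawn at its mean level. The points all lie in the class of highest level. The band and line end at its mean level of 10.91, so most points lie to the right of both. They are close to 0 in mbd4 and, except for RPS2, below 0 in mbd6. In mbd11 they spread from -1.38 to 0.67, past the band limits of that class, -1.27 and 0.62.

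The fall of RPS2 and of both RPL4 genes went along with the array measures of mbd11 given above, the wider spread and the larger 3' to 5' difference. With the 3' to 5' difference as a covariate over all 12 arrays, RPS2 differed by -1.48 (adjusted p = 0.0046), AT3G09630 by -1.49 (0.0017), AT5G02870 by -1.33 (0.0063) and RPL17 by 0.87 (0.0065). RPL34 then differed by 0.51 and was not called (adjusted p = 0.066, and 0.0017 to 0.12 over all settings). Outside mbd11 only mbd4 replicate 3, at 2.08, had a difference in the range of the mbd11 arrays, 1.98 to 2.58. The mbd11 genotype and the 3' to 5' difference therefore cannot be told apart here. Over the 23 members the change in mbd11 had a Spearman correlation of -0.27 and a Pearson correlation of 0.01 with the length of the gene, a description with n = 23. Markers of leaf and root also differed in mbd11: all 3 measured leaf markers fell, with changes of -1.24 to -0.65, PYK10 of the root fell by 1.73, and EXPA7, also of the root, differed by 0.17 and was not called. Their part in the ribosomal protein values was not tested.

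The large and small subunits were then compared inside each array, where a shift of the whole array cancels. The mean over the 15 large subunit genes minus the mean over the 8 small subunit genes was 0.17, 0.18 and 0.23 on the wild-type arrays. The mbd4 arrays gave 0.15, 0.17 and 0.18, and the mbd6 arrays 0.22, 0.21 and 0.17. In mbd11 it was 0.38, 0.53 and 0.41, above all 9 other arrays. As group means, wild type stood at 0.19 ± 0.03, mbd4 at 0.17 ± 0.01, mbd6 at 0.20 ± 0.03 and mbd11 at 0.44 ± 0.08 (SD, n = 3).

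In the deposited values both subunit means were lower in mbd11 than in wild type, the small subunit mean by more. The large subunit mean was 11.55 ± 0.04 in wild type and 11.36 ± 0.12 in mbd11, and the small subunit mean was 11.36 ± 0.04 and 10.91 ± 0.21. Cyclic loess left the gap at 0.44 in mbd11 and 0.19 in wild type, but not the direction of the large subunit. The median change was then 0.06 for the large and -0.11 for the small subunit. With medians in place of means the gap was 0.0064 (wild type), 0.0015 (mbd4), 0.12 (mbd6) and 0.70 (mbd11). The small subunit genes did not shift together: 6 of 8 changes were negative and 2 positive, from -1.38 for RPS2 to 0.26 for RPS10. RPS2 and RPS3a, the 2 small subunit genes called, fell most and weigh on the small subunit mean. The 6 others changed by -0.65 to 0.26, inside the range of the large subunit genes, -1.33 to 0.67. The wider gap therefore cannot be read as a shift of the whole small subunit. The gap without RPS2 and RPS3a was not tested. Within the large subunit RPL4 and RPL10a genes fell while RPL34 and RPL17 rose. Relative to neighbours of similar level, the median change was -0.01 for the large and -0.10 for the small subunit. Above the median of their neighbours were 7 of 15 large and 3 of 8 small subunit genes. No test was made of the gap, because the genes are not replicates of a condition.

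**Figure D5:**
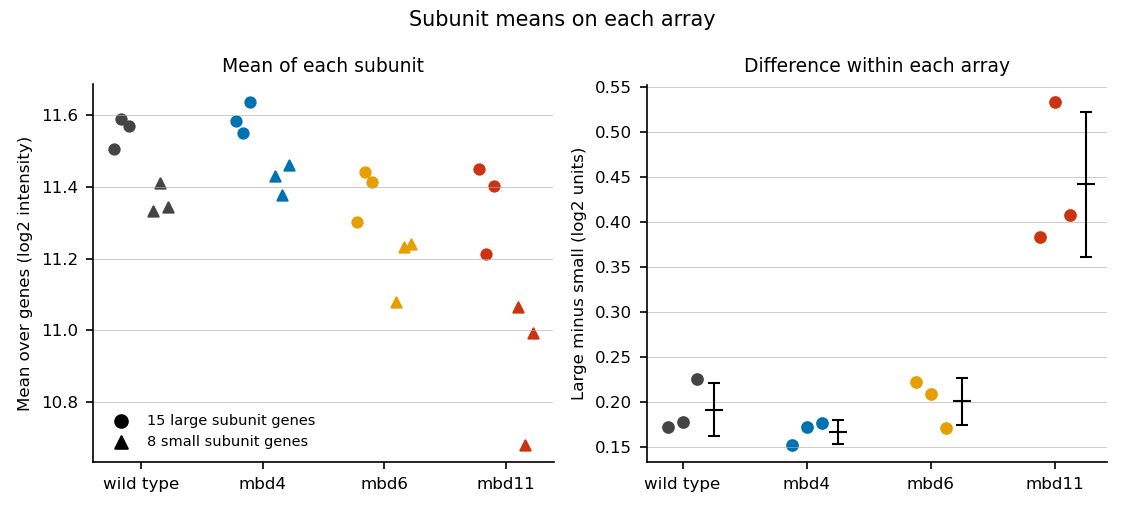
Mean log2 intensity of the 15 large (circles) and 8 small (triangles) subunit genes on each array (left), and the large minus small difference within each array with the group mean and SD of 3 arrays (right). The right axis does not start at 0; the differences lie between 0.15 and 0.23 in wild type, mbd4 and mbd6 and between 0.38 and 0.53 in mbd11.

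Near-copies encoding the same protein could be read side by side for 2 proteins. The RPL4 genes AT3G09630 and AT5G02870 changed in the same direction in mbd11, by -1.33 and -0.95, and both were called. The RPL10a genes PGY1 and AT1G08360 differed by -0.66 and -0.28 in mbd11, and PGY1 alone was called (AT1G08360 adjusted p = 0.301). AT1G08360 read 11.38, 11.29 and 11.26 in wild type and 11.31, 11.00 and 10.78 in mbd11. Its mbd4 values were 11.36, 11.43 and 11.49, and its mbd6 values 11.11, 11.26 and 11.12. Its mbd11 values overlapped with wild type, unlike those of PGY1. The difference between the 2 changes, -0.37 for the RPL4 pair and -0.38 for the RPL10a pair, was not tested. The probe sets were assigned to 1 gene each, and how far the probes of 1 copy also bind the other was not tested.

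Between mutants, mbd6 was compared with mbd4. All 23 members had a lower mean in mbd6 than in mbd4, with a median difference of -0.20 beside 0.01 over all probe sets. Part of this was shared by bright probe sets, as neighbours of similar level had a median of -0.09. Relative to them the members' median was -0.15, with 1 of 23 above. Of the 23, 15 did not overlap, where 28.0% of all probe sets did not, and 0 of 23 were called by limma, where 7.82% of all probe sets were called. At an unadjusted p under 0.05 there were 8 of 23, where 22.2% of all probe sets were under it. RPS7 (AT3G02560) read 10.95, 11.20 and 11.24 in mbd6, below its mbd4 values given above, and had the largest difference, -0.41 (SE 0.12, adjusted p = 0.0675, and 0.021 to 0.20 over all settings). For 10 of 23 members all mbd6 values lay below all wild-type and mbd4 values, a pattern found in 8.29% of all probe sets.

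The mbd11 arrays were also set against those of the other mutants, in comparisons that share the mbd11 arrays with the one above. Against mbd4, 7 members were called, 5 lower and 2 higher, where 19.8% of all probe sets were called, 10.9% lower and 8.97% higher. The changes were -1.61 for RPS2, -1.26 for AT3G09630 and -1.02 for AT5G02870, with RPS3a and PGY1 also lower and RPL34 and RPL17 higher. Against mbd6, 4 members were called, 2 lower and 2 higher, where 22.3% of all probe sets were called, 12.4% lower and 9.85% higher. AT3G09630 fell by 1.00, and the changes were -1.43 for RPS2, 0.85 for RPL17 and 0.81 for RPL34.

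Other parts of the translation machinery were read from lists chosen for their function. The 12 genes for the acidic proteins of the large subunit stalk, which recruits elongation factors, were all measured. In mbd4, 2 were called, RPP0 genes AT2G40010 (-0.46) and AT3G11250 (-0.39), both lower, where 8.81% of all probe sets were called. They were called in 7 and 10 of 17 settings, and neither in the fit over all 12 arrays. In mbd6, where 19.9% of all probe sets were called, AT3G11250 fell by 0.46 and the RPP2 gene AT3G28500 rose by 0.42 (adjusted p = 0.0478). That probe set was dim, with means of 5.21 in wild type and 5.63 in mbd6, and was called in 7 of 16 settings (adjusted p of 0.039 to 0.75). In mbd11, where 22.4% of all probe sets were called, 3 were lower and 1 higher: AT3G11250 (-1.43, adjusted p = 0.00219), the RPP0 gene AT3G09200 (-1.29) and the RPP1 gene AT5G47700 (-0.86) fell, while the RPP3 gene AT4G25890 rose by 1.38. The median change over the 12 was -0.14 (mbd4), -0.19 (mbd6) and -0.03 (mbd11). AT1G01100, another RPP1 gene, read 12.26 ± 0.03 in wild type and 12.23 ± 0.03 in mbd11 (SD, n = 3).

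Fewer genes of the other lists were measured. Over all probe sets, 8.81% were called in mbd4, 19.9% in mbd6 and 22.4% in mbd11, there 12.6% lower and 9.78% higher. Of 23 ribosome assembly genes 4 were measured, with 0 called in mbd4 and mbd6. In mbd11, 2 were called lower, the helicase gene AT5G60990 (-1.54, in 17 of 17 settings) and AT2G40360 (-0.72, in 12 of 17). Of 21 translation factor genes 3 were measured. In mbd11 the EIF4A-2 gene AT1G54270 fell by 1.08, called in 17 of 17 settings. AT5G12110, for a subunit of the elongation factor exchange complex, rose by 0.82. It was called in 10 of 17 settings, and in none that left out a wild-type array. RAPTOR1 (AT3G08850), a partner of the growth-regulating TOR kinase, was the 1 of 7 growth regulators measured and fell by 1.09 in mbd11. It was called in 15 of 17 settings, and not with genotype weights or the 3' to 5' covariate (limma adjusted p up to 0.23). Ribosomal proteins of the plastid, made in the cytosol and imported, were measured for 9 of 37 nuclear genes. In mbd6, 6 of these 9 fell, where 10.0% of all probe sets were called lower, with a median of -0.41 beside -0.18 for the cytosolic group, and in mbd4 and mbd11 0 of 9 were called. In the fit over all 12 arrays 1 of the 6, AT1G29070, was still called. In mbd11 their median was -0.36.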

How the data were processed

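Per the submitters' processing notes, the deposited values are log2 intensities made with RMA in R 2.11, which corrects the background, quantile-normalizes the arrays and summarises the probes of a probe set. The labels describe biotin-labelled RNA made by the 3' IVT protocol from whole seedlings. No source used here gives scan dates or batches. No column of another series was in the table (0 columns). Of 22810 probe sets, 64 controls were left out.

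Each comparison was fitted to its 6 arrays with limma 3.58.1 (lmFit and eBayes, R 4.3.3) over all 22746 probe sets, with two-sided p-values and Benjamini-Hochberg adjustment, and adjusted p under 0.05 as the threshold. Only the 6 arrays entered, since the spread in mbd11 would otherwise set the error elsewhere. In simulated data with the spread of each group, false calls exceeded the nominal share, most in mbd11 and there more so over all 12 arrays. The simulation took each probe set's observed SD over 3 arrays as its true SD, with independent normal noise. The share of false calls in the real arrays can therefore differ. Changes are first group minus second. Neighbours of similar level are the 200 nearest non-member probe sets by mean over 12 arrays. Gene names of the array come from the platform annotation, matched by locus. For arrays, the 3 per group limit the precision.

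The members and lists were chosen with earlier results of these data known. Values on single arrays are given for called members without overlap, near-copies, 2 of the brightest and the 3 dimmest members. They are also given for the 2 per direction farthest from their neighbours. Not every one of these genes has the values of all genotypes in the text. For other lists, up to 3 called genes per direction are named. The single values of 2 members are not reported here. Alternatives were the fit over all 12 arrays, plain, weighted by genotype spread or with the 3' to 5' covariate, a replicate block, median centring, cyclic loess, probe sets with a mean above 6, a prior with a trend, other probe set rules and leaving out each array. The large minus small gap under cyclic loess was added after seeing the data.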

Additional observations from a re-analysis of the deposited data

How the results depend on the processing

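Of 2208 values of single members under an alternative, 2087 kept their side of the threshold, 52 became calls, 69 lost a call and 0 changed direction with a call. Many of the 2087 belong to members that were never called, among them all 368 in mbd4 against wild type. They are therefore no measure of how stable the calls were. The 1 call in mbd6 was lost under 9 alternatives, and the 7 calls in mbd11 were lost in 24 values. Members called in mbd6 against wild type were 1 in the fit reported, 0 over all 12 arrays, with the 3' to 5' covariate and after cyclic loess, 2 with genotype weights or probe sets above 6, 3 with a trended prior, and 0 to 1 leaving out 1 array. Of all probe sets, 19.9% were called in mbd6, 6.91% over all 12 arrays, 7.78% with the covariate and 19.9% after cyclic loess. The share was 21.5% with weights, 32.7% above 6, 20.5% with a trended prior and 14.2% to 17.6% leaving out 1. In mbd11 against wild type members called were 7, then 11 over all 12 arrays and 2 to 8 leaving out 1 array. The shares of all probe sets were 22.4%, 40.2% and 7.19% to 36.4%. For mbd6 against mbd4 members called were 0, then 1 with weights, probe sets above 6 or a trended prior. The shares of all probe sets were 7.82%, then 10.8%, 14.9% and 8.27%. For mbd11 against mbd4 members called were 7, then 11 over all 12 arrays and 2 to 7 leaving out 1. The shares of all probe sets were 19.8%, 42.3% and 4.22% to 30.9%. For mbd11 against mbd6 members called were 4, then 9 over all 12 arrays. They were 7 after cyclic loess, with probe sets above 6 or a trended prior, and 1 to 7 leaving out 1. The shares of all probe sets were 22.3%, 42.4%, then 21.8%, 38.5% and 23.1%, and 6.75% to 36.0%. The other lists gave 2 calls in mbd4 (0 over all 12 arrays or with the covariate, 1 after cyclic loess or with a trended prior, 0 to 2 leaving out 1), 8 in mbd6 (1 over all 12 arrays or with the covariate, 5 to 7 leaving out 1) and 9 in mbd11 (14 over all 12 arrays, 5 to 11 leaving out 1). For mbd6 and mbd11 the shares of all probe sets in these settings are those above. In mbd4 they were 8.81%, 2.30% over all 12 arrays and 2.26% with the covariate. After cyclic loess the mbd4 share was 9.08%, with a trended prior 9.16%, and leaving out 1 it was 4.37% to 10.7%. The members' median in mbd11 was 0.055 after cyclic loess. With medians, the large minus small gap was 0.0064, 0.0015, 0.12 and 0.70 in wild type, mbd4, mbd6 and mbd11. The RPL4 pair differed by -0.089 in mbd4 and -0.16 in mbd11 with the covariate, and by -0.21 to -0.074 in mbd4 and -0.22 to -0.085 in mbd6 leaving out 1 array. Over all probe sets, calls numbered 2004 in mbd4 (523 over all 12 arrays), 4535 in mbd6 (1572), 5100 in mbd11 (9141), 1779 for mbd6 against mbd4 (467), 4510 for mbd11 against mbd4 (9621) and 5069 for mbd11 against mbd6 (9636). The causes were not tested, except that the fit over all 12 arrays shares 1 error estimate between mbd11 and the groups of smaller spread.

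Replicate numbers are shared between groups, but deviations of same-numbered arrays correlated between -0.38 and 0.22, which gave no sign of pairing. With 3 arrays per group such correlations cannot exclude it. With the replicate block, members called were 0 in mbd6, 3 in mbd11, and 4 for mbd11 against mbd4. The shares of all probe sets were 18.1%, 16.03% and 19.2%. The other lists had 0 calls in mbd4, where 5.18% of all probe sets were called. In number, 1178 and 3646 probe sets were called in mbd4 and mbd11 against wild type. With 3 arrays per group, the SE was near 0.10 in mbd4 and mbd6 and 0.18 in mbd11. Differences of that size or smaller cannot be told from the spread between replicates. Larger ones also missed the threshold, such as RPS24 in mbd6 at -0.29 (SE 0.11) and RPS9 in mbd11 at -0.48 (SE 0.16).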
